A study of Mus musculus with 9 samples.

Results

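Myeloperoxidase (Mpo), the neutrophil serine proteases Elane, Prtn3, Ctsg and Prss57, the membrane protein gene Ms4a3 and the granule proteoglycan gene Srgn were followed through mouse acute myeloid leukemia (AML) cells. The 7 genes were taken by name from a deposited table of 55536 genes, and each was found once. All 7 passed the filter on low values in each comparison. In AML-WT cells all 7 were higher in the c-kit+ than in the c-kit- population, by 1.26 for Prtn3 to 3.80 for Ms4a3 on the log2 scale. Between the c-kit+ populations they split: Ctsg was higher in the libraries labelled IRF7-/- c-kit+ (log2 fold change 1.63), Prss57 was lower (-1.10), and the other 5 did not pass both thresholds.

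The 9 libraries came from GFP+ leukemia cells of C57BL/6J mice. C-kit+ cells of wild-type or IRF7-/- donors had been infected with a retrovirus carrying MLL-AF9, a fusion oncogene, and GFP, so every group carried both. In the IRF7-/- donors a PGK-beta-geo cassette replaced exons 2 and 3 of Irf7, an interferon regulatory factor gene. Leukemia cells were transplanted at 1000000 per mouse into unirradiated mice aged 6 to 8 weeks, and marrow was taken at day 18. The sort on c-kit, the stem cell factor receptor, gave 3 populations with 3 libraries each, labelled WT c-kit- and WT c-kit+ for the wild-type leukemia and IRF7-/- c-kit+ for the knockout. All carried the label of GFP overexpression. Recipients were not irradiated and kept their own marrow, and whether a library came from 1 mouse or several is not stated. The p-values therefore measure the spread between these libraries.

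Primary granules are made at the promyelocyte stage of neutrophil development. They store myeloperoxidase, a haem enzyme that makes hypochlorous acid, together with serine proteases that digest bacterial and matrix proteins. These positively charged proteins are packed onto the chondroitin sulfate chains of serglycin, the product of Srgn. The proteases are made as inactive precursors, and cathepsin C, the product of Ctsc, removes a dipeptide to activate them. Transcription of the set is known to depend on PU.1, C/EBP factors, MYB and RUNX1.

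The labels were checked first. Kit was 0.52 to 3.03 TPM (a level corrected for gene length and scaled to the library total) in WT c-kit-, 50.7 to 58.5 TPM in WT c-kit+ and 70.3 to 85.7 TPM in the third group. Irf7 was 23.5, 22.3 and 32.3 TPM in WT c-kit-. It was 5.31, 3.91 and 3.36 TPM in WT c-kit+ against 12.8, 5.97 and 7.95 TPM in the libraries labelled IRF7-/- c-kit+. The labelled knockout libraries were thus above WT c-kit+ for Irf7, against the label, and below WT c-kit-. The table gives 1 value per gene, so reads from the replaced exons cannot be separated from those of the remaining exons. Ptprc, Itgam, Hoxa9 and Meis1, markers of leukemic myeloid cells, were present in all 3 groups. Column totals ran from 987468 to 992231 TPM. TPM keep no sequencing depth, so the depth behind each value is unknown and precision rests on 3 libraries per group.

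Markers of maturing neutrophils (Ltf, Camp, Lcn2, Ngp, Mmp8, Mmp9, Cxcr2, S100a8, S100a9) differed between the groups. Their summed level was 6520, 8111 and 32089 TPM in WT c-kit-. It was 57850 to 113013 TPM in WT c-kit+ against 1707 to 2684 TPM in the libraries labelled IRF7-/- c-kit+. All 9 were called lower by limma in the last group than in WT c-kit+, by the thresholds given below, beside 5.39% of all genes. Cxcr2 passed the filter on low values only through WT c-kit+, so it could only be called lower. In WT c-kit+ against WT c-kit-, only Camp, Ngp, S100a8 and S100a9 were called higher, and Mmp8 was called lower. The shares of all genes were 4.83% and 9.61%. Ltf, Lcn2, Mmp9 and Cxcr2 were not called there. In WT c-kit+ the 9 genes together took 5.85% to 11.4% of the column total, which lowers the TPM of every other gene there. Of the marker lists of T and NK cells and of B cells, only Nkg7 and Cd79b reached a mean of 1 TPM, and erythroid and megakaryocyte markers summed to at most 17.8 and 4.44 TPM. Mast cell and basophil markers summed to 37.5 to 64.2 TPM in WT c-kit-, 47.3 to 98.4 TPM in WT c-kit+ and 82.2 to 104 TPM in the third group. Those of eosinophils summed to 0.81 to 4.04 TPM, 5.69 to 13.6 TPM and 14.4 to 29.1 TPM in the same order, and Epx, the eosinophil peroxidase gene, did not pass the filter. Monocyte and macrophage markers summed to 4157 to 5218 TPM in WT c-kit-, 2114 to 2434 TPM in WT c-kit+ and 2536 to 3123 TPM in the third group. Most of each sum was Ly6c2 (means of 2967, 1994 and 2455 TPM). Between the c-kit+ groups 2 of 8 tested were higher and 4 lower at a limma adjusted p under 0.05, beside 31.9% and 16.1% of all genes. In WT c-kit+ against WT c-kit-, 3 (C1qa, C1qb and C1qc) were called higher and 4 lower, beside 4.83% and 9.61% of all genes. C1qa and C1qc passed the filter there only through WT c-kit+, so they could only be called higher. The part of these cell types in the results was not tested, except for the effect of the neutrophil markers on the total, which is given beside the values it moves. In such bulk samples, fewer cells of a type and less RNA per cell cannot be told apart.

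The genes lie on 4 chromosomes of the GRCm38 mouse genome (GENCODE M21 annotation). Elane, with 5 exons, is on chromosome 10 at 79886247-79888215 on the plus strand. Prtn3, which codes for proteinase 3 and also has 5 exons, starts 11771 bases upstream of Elane at 79874476-79883174 on the plus strand. Prss57, the gene of neutrophil serine protease 4, is on the minus strand of the same chromosome at 79781474-79790961, its start 95286 bases from that of Elane. Srgn has 3 exons and is also on chromosome 10, at 62493833-62527451 on the minus strand. Ctsg, the cathepsin G gene with 5 exons, is on chromosome 14 at 56099881-56102574 on the minus strand. Mpo has 14 exons and is on chromosome 11 at 87793581-87804413 on the plus strand. Ms4a3, a 7-exon member of the membrane-spanning 4A family, is on chromosome 19 at 11629496-11640851 on the minus strand.

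Some reads of these genes may belong to neighbours, since the library kit does not mark strand. The antisense gene Gm11505 overlaps Mpo and was listed at 1.31 to 4.81 TPM, 38.8 to 55.0 TPM and 30.3 to 35.9 TPM in the order WT c-kit-, WT c-kit+ and labelled IRF7-/- c-kit+. Plppr3 overlaps Prtn3 and Fstl3 overlaps Prss57 on the other strand, at means of 103 to 151 TPM and 2.53 to 6.22 TPM. Elane, Ctsg, Ms4a3 and Srgn overlap no annotated gene.

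The promoter sequences below are shown because these genes moved together between c-kit- and c-kit+ cells and apart between the c-kit+ populations. They are the 250 bases before the RefSeq start (GRCm38.p6), written on the gene's own strand. A window was found for 6 of the 7 genes, with 2 for Srgn. Capitals mark GAGGAA (a PU.1 core), AACTG and AACGG (MYB cores) and TGTGGT (a RUNX core) and the interferon-stimulated response element, each searched on both strands, with TTNNGCAA (C/EBP) also searched. Elane is at chr10:79886062-79886311 (plus), Prtn3 at chr10:79879417-79879666 (plus), Ctsg at chr14:56102575-56102824 (minus) Ms4a3 at chr19:11640852-11641101 (minus) and the first Srgn window at chr10:62507758-62508007 (minus).
Elane: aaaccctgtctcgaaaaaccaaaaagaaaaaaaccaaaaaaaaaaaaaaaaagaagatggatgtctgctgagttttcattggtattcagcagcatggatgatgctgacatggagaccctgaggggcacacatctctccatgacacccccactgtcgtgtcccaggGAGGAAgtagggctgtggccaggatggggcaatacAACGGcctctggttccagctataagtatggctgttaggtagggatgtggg
Prtn3: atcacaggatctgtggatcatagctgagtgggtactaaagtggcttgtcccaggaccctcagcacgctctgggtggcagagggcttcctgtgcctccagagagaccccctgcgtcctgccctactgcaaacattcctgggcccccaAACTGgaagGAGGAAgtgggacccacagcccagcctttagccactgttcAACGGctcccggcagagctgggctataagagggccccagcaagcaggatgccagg
Ctsg: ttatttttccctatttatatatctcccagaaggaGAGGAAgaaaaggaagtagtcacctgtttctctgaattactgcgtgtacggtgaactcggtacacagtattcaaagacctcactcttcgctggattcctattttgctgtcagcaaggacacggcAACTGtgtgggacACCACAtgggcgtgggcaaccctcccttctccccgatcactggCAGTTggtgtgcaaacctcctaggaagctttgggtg
Ms4a3: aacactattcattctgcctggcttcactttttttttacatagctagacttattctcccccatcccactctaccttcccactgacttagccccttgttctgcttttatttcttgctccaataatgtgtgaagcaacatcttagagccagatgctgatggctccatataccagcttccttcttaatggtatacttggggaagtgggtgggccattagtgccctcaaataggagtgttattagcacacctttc
Srgn: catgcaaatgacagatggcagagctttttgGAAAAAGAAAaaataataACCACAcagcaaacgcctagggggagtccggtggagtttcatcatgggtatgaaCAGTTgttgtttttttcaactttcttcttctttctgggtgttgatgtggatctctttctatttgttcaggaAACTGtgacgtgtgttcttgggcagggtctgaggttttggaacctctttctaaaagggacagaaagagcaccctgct

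Elane and Prtn3 carried GAGGAA followed by AACGG in the same order. In Elane they began 85 and 50 bases before the start, and in Prtn3 95 and 55 bases before it, 35 and 40 bases apart. Both motifs, on either strand and in any order or spacing, were present in 3.33% of the 32851 promoter windows of the same length. The share with this order and spacing was not counted. The Ctsg window held GAGGAA further out, 216 bases before the start, with AACTG on each strand and TGTGGT on the reverse strand as ACCACA. Mpo, at chr11:87793534-87793783, held GAGGAA at 2 places and AACTG at 1. The Ms4a3 window held none of the 6 motifs. The first Srgn window was the 1 of the 7 windows with the interferon-stimulated response element, which began 220 bases before the start, and it also held AACTG on each strand and TGTGGT on the reverse strand. Its start lies 19694 bases from that of the GENCODE gene. The other Srgn window, at chr10:62527446-62527695, has its RefSeq start 6 bases from the GENCODE gene start. It held only AACTG, on the reverse strand, and no interferon-stimulated response element. GAGGAA alone was in 23.3% of all windows, AACTG in 39.1%, AACGG in 14.5%, TGTGGT in 14.0%, TTNNGCAA in 9.56% and the interferon-stimulated response element in 2.98%. A match is only a match of letters, and the RefSeq start of Prtn3 lies 5191 bases from the start of the GENCODE gene.

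The first question was how the granule genes differ between the c-kit+ and c-kit- cells of the same leukemia. All 7 were called higher in WT c-kit+, against 4.83% of the 13261 tested genes called higher and 14.4% called in either direction. A gene was called at a fold change of at least 2 and an adjusted p under 0.05 (limma on log2(TPM + 1), Benjamini-Hochberg over all tested genes). The median log2 fold change was 2.78 over the 7 genes and -0.08 over all tested genes. For none of the 7 did the ranges of the groups overlap, which was also true of 54.4% of tested genes. All 7 stayed called with each library left out in turn.

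Mpo was 451, 455 and 389 TPM in WT c-kit- replicates 1 to 3 and 4264, 5947 and 4355 TPM in WT c-kit+. Every c-kit+ library was far above every c-kit- library, and the group means stood at a ratio of 11.3. The log2 fold change was 3.48 (SE 0.15, limma adjusted p = 1.95e-05). It ranked 18 from the highest among all tested genes.

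Elane, which codes for neutrophil elastase, was 1056, 837 and 752 TPM in WT c-kit- and 5105, 7022 and 5962 TPM in WT c-kit+. The means stood at a ratio of 6.84, with a log2 fold change of 2.78 (SE 0.17, limma adjusted p = 5.26e-05). Prtn3 was 1501, 1515 and 1357 TPM against 3008, 4191 and 3354 TPM. It had the smallest difference of the 7, at 1.26 on the log2 scale (SE 0.14, limma adjusted p = 0.000543), and the highest level in c-kit- cells.

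Ctsg was 411, 469 and 343 TPM in WT c-kit- and 1158, 1680 and 1094 TPM in WT c-kit+ (log2 fold change 1.67, SE 0.19, limma adjusted p = 0.000639). Prss57 was the lowest of the proteases throughout, at 9.37, 16.4 and 17.5 TPM against 115, 119 and 115 TPM (2.97, SE 0.21, limma adjusted p = 9.31e-05). The 3 WT c-kit+ values of Prss57 were nearly the same, with an SD of 2.09 TPM (n = 3).

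Ms4a3, expressed in granulocyte-monocyte progenitors, had the largest difference. It was 33.5, 54.2 and 55.1 TPM in WT c-kit- and 668, 696 and 620 TPM in WT c-kit+, a log2 fold change of 3.80 (SE 0.19, limma adjusted p = 2.72e-05) that ranked 11 from the highest. Srgn, which is used by many blood cells, was 309, 370 and 406 TPM against 1234, 1523 and 1156 TPM (1.85, SE 0.14, limma adjusted p = 0.000116).

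**Figure D1:**
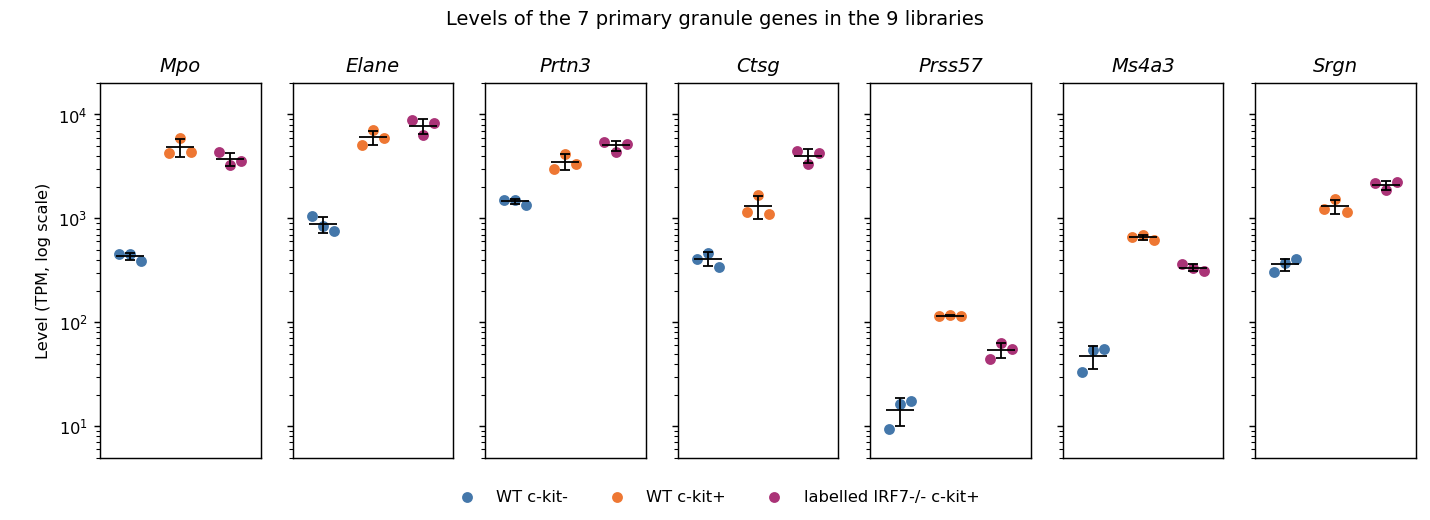
Levels of the 7 genes in TPM on a log axis, with 1 point per library in replicate order and the mean ± SD of 3 libraries in black. All points of WT c-kit- lie below those of both c-kit+ groups for each gene, while between the c-kit+ groups Ctsg is higher and Prss57 and Ms4a3 are lower in the libraries labelled IRF7-/- c-kit+.

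The second question was how the c-kit+ cells differ with the Irf7 genotype given by the label. Of the 7 genes, 1 was called higher and 1 lower in the libraries labelled IRF7-/- c-kit+, where 6.3% of 13238 tested genes were called higher, 5.39% lower and 11.7% in all. Without a fold threshold, 3 were higher and 2 lower at an adjusted p under 0.05, where 31.9% of all genes were higher, 16.1% lower and 48% in all. The median log2 fold change was 0.37 over the 7 genes and 0.12 over all tested genes. For 5 of the 7 the libraries did not overlap, against 59.1% of tested genes.

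Ctsg was called higher. It was 4464, 3345 and 4241 TPM in the libraries labelled IRF7-/- c-kit+ and 1158, 1680 and 1094 TPM in WT c-kit+, means of 4017 ± 592 and 1311 ± 321 TPM (SD, n = 3). The lowest library of the first group was above the highest of the second. The log2 fold change was 1.63 (SE 0.19, limma adjusted p = 0.000894), and 1.50 to 1.82 over the alternatives run.

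Prtn3 and Srgn were higher by less than 2-fold. Prtn3 was 5485, 4372 and 5237 TPM against 3008, 4191 and 3354 TPM, and the groups were separated only by 4372 and 4191 TPM. The log2 fold change was 0.52 (SE 0.15, limma adjusted p = 0.0276). With the 9 neutrophil markers left out of the column total it was 0.39 (limma adjusted p = 0.0503). With 1 library left out the limma adjusted p was 0.00713 to 0.0960, and above 0.05 in 4 of 6 fits. Srgn was 2196, 1863 and 2229 TPM against 1234, 1523 and 1156 TPM, without overlap (0.69, SE 0.13, limma adjusted p = 0.00485), and 0.56 (limma adjusted p = 0.00822) with those markers left out.

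Elane and Mpo lay on opposite sides of zero, and neither passed a threshold. Elane was 8771, 6341 and 8347 TPM in the libraries labelled IRF7-/- c-kit+ and 5105, 7022 and 5962 TPM in WT c-kit+. The ranges overlapped, with a log2 difference of 0.37 (95% interval -0.04 to 0.79, limma adjusted p = 0.119). Mpo was 4313, 3252 and 3608 TPM against 4264, 5947 and 4355 TPM. These also overlapped, at -0.38 (95% interval -0.77 to 0.02, limma adjusted p = 0.106). With the neutrophil markers left out of the total, Mpo was -0.51 (limma adjusted p = 0.0325) and Elane 0.24 (limma adjusted p = 0.249). Under quantile normalization Elane was 0.61 (limma adjusted p = 0.0161) and Mpo -0.39 (limma adjusted p = 0.0425). Mpo was -0.22 (limma adjusted p = 0.198) without WT c-kit+ replicate 2.

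Prss57 was called lower. It was 44.4, 63.1 and 55.5 TPM against 115, 119 and 115 TPM, a ratio of WT c-kit+ over the labelled group of 2.14 (log2 fold change -1.10, SE 0.12, limma adjusted p = 0.000743). Without the labelled IRF7-/- c-kit+ replicate 1 it was -0.96, under the fold threshold. Ms4a3 was 365, 330 and 315 TPM against 668, 696 and 620 TPM, with no overlap. Its log2 fold change of -0.97 (SE 0.08, limma adjusted p = 0.000207) fell just short of the fold threshold, and passed it at -1.11 with the neutrophil markers left out of the total.

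**Figure D2:**
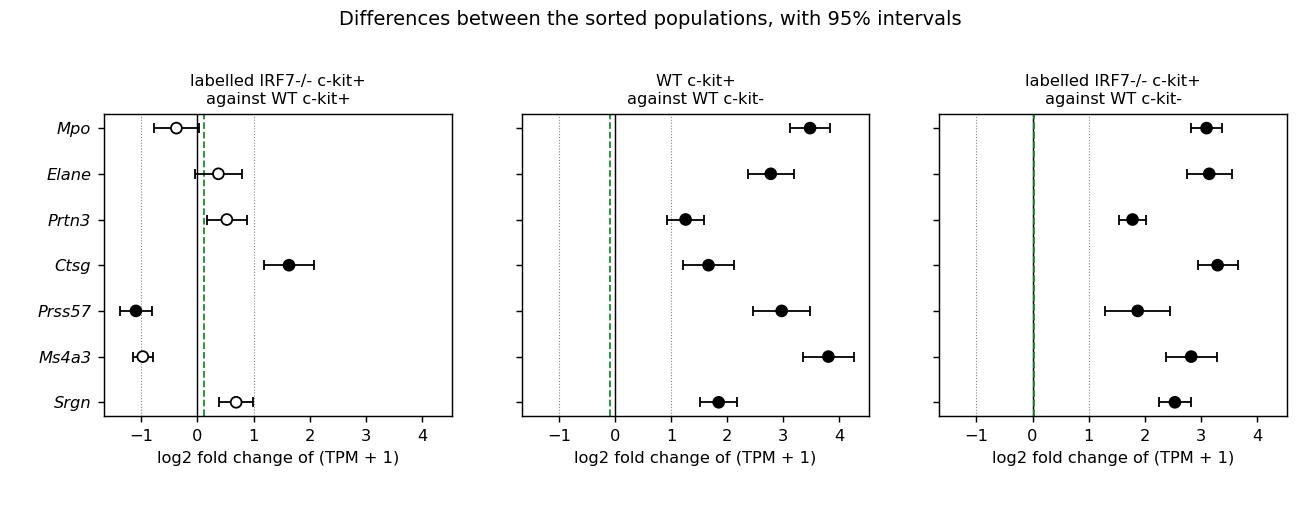
Log2 fold change of (TPM + 1) with its 95% interval for the 7 genes in the 3 comparisons, where filled points passed both thresholds, dotted lines mark a fold of 2 and the dashed green line marks the median of all tested genes. In the left panel Ctsg (1.63) and Prss57 (-1.10) are filled and the others open. In the other panels all 7 points are filled and to the right of the fold line.

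Against WT c-kit-, the libraries labelled IRF7-/- c-kit+ had all 7 genes called higher, where 8.4% of 13510 tested genes were called higher and 20.3% in all. The libraries overlapped for none of the 7, and 67.1% of tested genes were likewise apart. The largest log2 fold change was that of Ctsg (3.30, SE 0.15, limma adjusted p = 1.08e-05), followed by Elane (3.15), Mpo (3.10), Ms4a3 (2.83), Srgn (2.54), Prss57 (1.87) and Prtn3 (1.78). This comparison shares its libraries with the other 2, so its values restate the same groups. For a single gene, 3 libraries against 3 cannot give a two-sided exact permutation p below 0.1. That value was reached wherever the groups did not overlap.

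The levels, compared between genes on the TPM scale, had a different order in each population. In WT c-kit- the order of means was Prtn3 (1458 TPM), Elane (881 TPM), Mpo (431 TPM), Ctsg (408 TPM), Srgn (361 TPM), Ms4a3 (47.6 TPM) and Prss57 (14.4 TPM), with Mpo, Ctsg and Srgn overlapping as neighbours. In WT c-kit+ it was Elane (6030 TPM), Mpo (4855 TPM), Prtn3 (3518 TPM), Ctsg (1311 TPM), Srgn (1304 TPM), Ms4a3 (662 TPM) and Prss57 (116 TPM), with Elane and Mpo overlapping, and Ctsg and Srgn. Mpo stood lower in the order in the libraries labelled IRF7-/- c-kit+, behind Elane (7820 TPM), Prtn3 (5031 TPM) and Ctsg (4017 TPM), although its 3724 TPM overlapped Ctsg and Ctsg overlapped Prtn3. Srgn (2096 TPM), Ms4a3 (336 TPM) and Prss57 (54.3 TPM) followed. Ms4a3 and Prss57 were the lowest pair in each population.

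Together the 7 genes took 0.336% to 0.382% of the column total in WT c-kit-, 1.57% to 2.14% in WT c-kit+ and 1.97% to 2.58% in the libraries labelled IRF7-/- c-kit+. The 2 c-kit+ ranges overlapped. Within that sum Mpo made up 11.7% to 12.2%, 26.1% to 28.1% and 15.0% to 16.8% in the same order of groups. Ctsg made up 10.3% to 12.6%, 6.57% to 7.93% and 17.1% to 17.6%. Prtn3 was the main part in WT c-kit-, at 39.8% to 40.9%, and made up 19.3% to 20.1% in WT c-kit+ and 21.4% to 22.3% in the third group. Between the c-kit+ groups the shares of 6 of the 7 genes did not overlap, those of Mpo, Ms4a3 and Prss57 being lower and those of Ctsg, Prtn3 and Srgn higher in the libraries labelled IRF7-/- c-kit+, while that of Elane did. Shares of 1 sum are tied to each other.

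Ratios within a library do not depend on the column total. Elane over Mpo was 2.04 ± 0.268 in WT c-kit-, 1.25 ± 0.104 in WT c-kit+ and 2.10 ± 0.190 in the libraries labelled IRF7-/- c-kit+ (SD, n = 3). The last group lay above WT c-kit+ without overlap (exact permutation p = 0.1, the smallest possible) and overlapped WT c-kit- (exact permutation p = 0.7). Ctsg over Mpo gave the widest gap between the c-kit+ groups, at 0.268 ± 0.0158 and 1.08 ± 0.0829, a log2 difference of 2.01 (exact permutation p = 0.1, n = 3). Its value in WT c-kit- was 0.942 ± 0.0783, overlapping the libraries labelled IRF7-/- c-kit+ (exact permutation p = 0.2).

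Prtn3 over Mpo overlapped between no pair of groups, at 3.38 ± 0.0901, 0.727 ± 0.0375 and 1.36 ± 0.0903 in the same order. Srgn over Mpo was 0.847 ± 0.182, 0.270 ± 0.0171 and 0.567 ± 0.0545. Elane over Prtn3 was closer between the c-kit+ groups, at 1.72 ± 0.0539 and 1.55 ± 0.0844, and far lower in WT c-kit- at 0.603 ± 0.0866. Ms4a3 over Prss57 was the ratio that overlapped between the c-kit+ groups, at 5.70 ± 0.269 and 6.37 ± 1.60 (exact permutation p = 0.9, n = 3). The 9 ratios computed are of 7 genes and share members, and no exact p below 0.1 was possible for any.

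**Figure D3:**
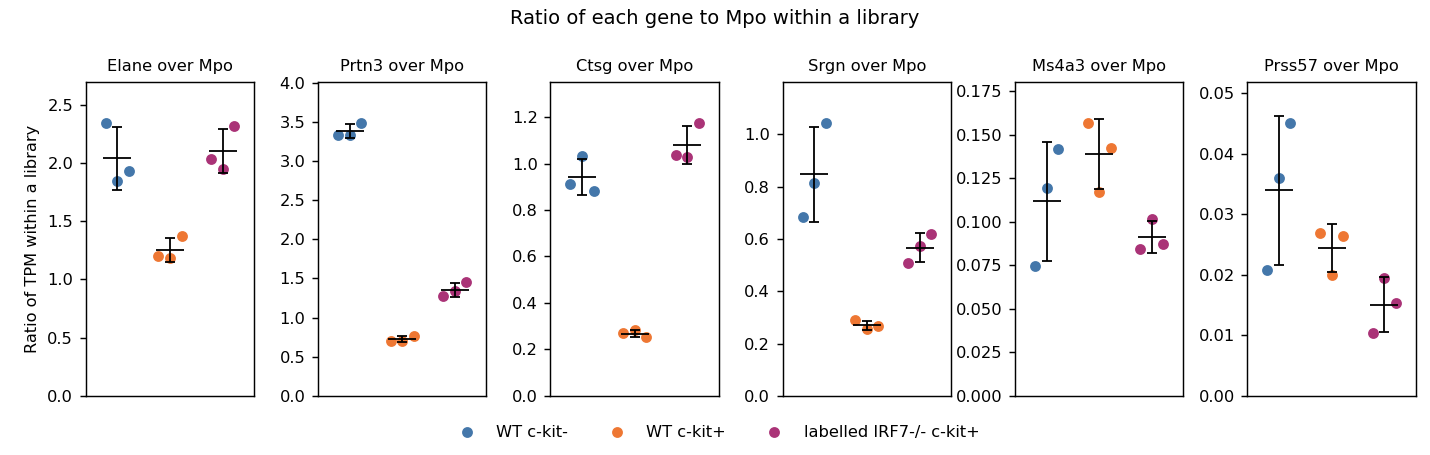
Ratio of the TPM of 6 genes to that of Mpo within each library on linear axes from 0, with 1 point per library and the mean ± SD of 3 libraries in black. Elane and Ctsg over Mpo are lowest in WT c-kit+ (means 1.25 and 0.268) and overlap between WT c-kit- and the libraries labelled IRF7-/- c-kit+.

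Mpo, Elane, Prtn3 and Ctsg also varied together among libraries of 1 group, while Prss57 and Ms4a3 were weakly or inversely related to them. In WT c-kit-, replicate 3 was the lowest for Mpo, Elane, Prtn3 and Ctsg and the highest for Prss57, Ms4a3 and Srgn. Its share of neutrophil markers in the total was the highest of the 3 (3.25%, against 0.660% and 0.821%). In WT c-kit+, replicate 2 was the highest of the 3 for all 7 genes, and it also had the lowest share of neutrophil markers in the total (5.85%). In the libraries labelled IRF7-/- c-kit+, replicate 2 was the lowest for Mpo, Elane, Prtn3, Ctsg and Srgn and the highest for Prss57. It had the highest share of neutrophil markers there (0.271%, against 0.175% and 0.172%). A link between these shares and the 7 genes was not tested. Deviations from the group means, on the log2 scale over the 9 libraries, correlated at 0.93 for Mpo with Ctsg, 0.94 for Mpo with Prtn3 and 0.91 for Prtn3 with Ctsg. They correlated at 0.74 for Prss57 with Ms4a3 and at -0.73 for Elane with Prss57. Prss57 was at -0.40 with Mpo, -0.33 with Prtn3 and -0.25 with Ctsg. Ms4a3 was at 0.06 with Mpo, 0.01 with Prtn3, 0.11 with Ctsg and -0.45 with Elane. These are descriptions over 9 points that share each library's column total.

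Across the 9 libraries, the genes most like each member were listed by Pearson's r of log2(TPM + 1) among 10277 genes with a mean of at least 5 TPM. Nkg7, a granule membrane protein gene of cytotoxic cells, was most like Mpo (r = 0.992), with means of 1.42, 164 and 140 TPM in the order of groups used above. Slc48a1, a haem transporter gene, came second (r = 0.991). Glrp1 was most like Ctsg (r = 0.998) at 0.583, 3.17 and 11.8 TPM. Hsdl2 was most like Elane (r = 0.995), Car9 most like Prtn3 (r = 0.993), Prodh most like Ms4a3 (r = 0.997) and Far2 most like Srgn (r = 0.997). For Prss57 it was B230118H07Rik (r = 0.993), at 19.1, 103 and 54.1 TPM. The 9 points fall into 3 groups, so r rests largely on the group means.

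Neighbouring genes were compared next. Of 44 other protein-coding genes that start within 100 kb of a member, 26 were tested. None was called by limma in the libraries labelled IRF7-/- c-kit+ against WT c-kit+, against 11.7% of all genes. At an unadjusted p under 0.05 there were 14 of the 26, beside at least 48% of all genes, the share under 0.05 after adjustment. At a limma adjusted p under 0.05 there were 12, beside 48% of all genes. Between WT c-kit+ and WT c-kit-, Palm, Tspoap1 and Ms4a2 were called higher and Ms4a6d lower, of 26 tested, where 14.4% of all genes were called. Palm starts 2611 bases from Prss57 and was 64.0, 131 and 137 TPM on average in the 3 groups. Plppr3, which overlaps Prtn3, had log2 fold changes of 0.43 and 0.12 where Prtn3 had 1.26 and 0.52, c-kit+ against c-kit- first. Cfd, a serine protease gene 4606 bases beyond the Elane start, was at most 3.78 TPM in any library. Ctsg lies among mast cell protease genes, of which Mcpt8 alone was tested, at 14.2, 29.1 and 40.9 TPM.

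**Figure D4:**
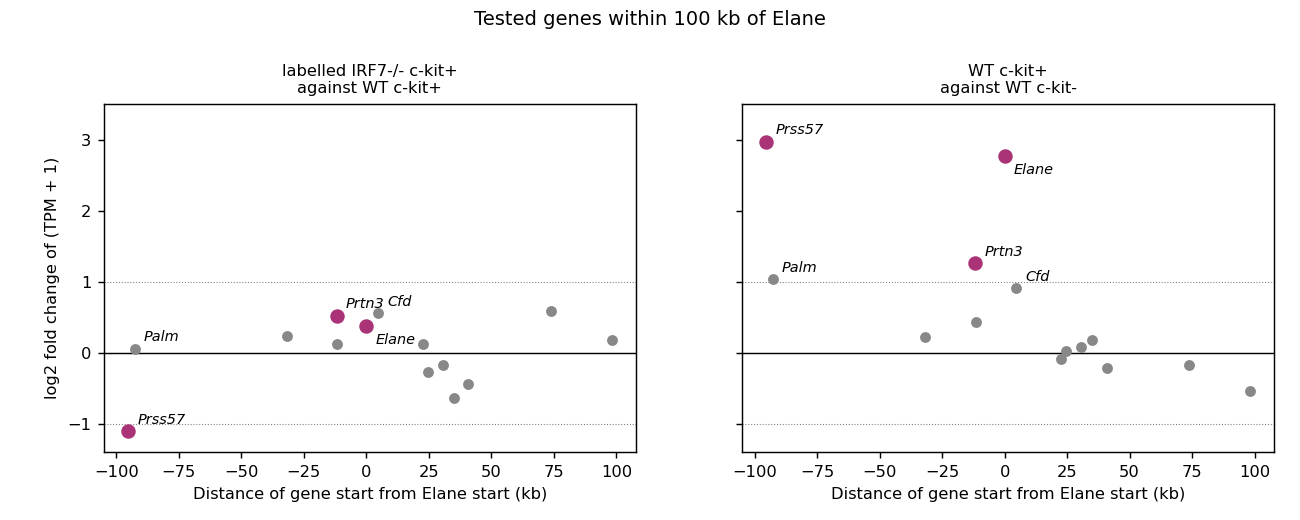
Log2 fold change of (TPM + 1) of the tested genes that start within 100 kb of Elane against their distance from its start in kb, with Elane, Prtn3 and Prss57 in purple, other genes in grey and dotted lines at a fold of 2. In WT c-kit+ against WT c-kit- (right), Prss57 (2.97), Elane (2.78) and Prtn3 (1.26) stand above the others, and in the left panel only Prss57 (-1.10) lies beyond a dotted line.

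Genes that serve the granule proteins were then read as lists. Of 11 tested genes of protease activation and inhibition, 3 were called higher and 2 lower in the libraries labelled IRF7-/- c-kit+ against WT c-kit+ (45.5%, beside 11.7% of all genes). Ctsc, the activating protease, fell by 1.47 on the log2 scale (SE 0.29, limma adjusted p = 0.00674). It was 24.1, 33.4 and 33.3 TPM in WT c-kit+ against 8.31, 16.7 and 7.37 TPM in the labelled group, without overlap. In WT c-kit- it was 214, 197 and 196 TPM, so the order of its group means was the reverse of that of Ctsg.

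Cst7, which codes for cystatin F, an inhibitor of cathepsin C, was 31.0, 51.7 and 51.3 TPM in WT c-kit+ against 146, 110 and 121 TPM in the libraries labelled IRF7-/- c-kit+ (log2 fold change 1.50, SE 0.21, limma adjusted p = 0.00178). Slpi, an inhibitor of elastase and cathepsin G, was 439, 432 and 488 TPM against 961, 1172 and 1089 TPM (1.24, SE 0.09, limma adjusted p = 0.000166). Neither overlapped. Serpina3g was called at 1.53 (limma adjusted p = 0.0374), but rested on 7.03, 25.9 and 6.19 TPM, and Stfa2, a stefin gene, was called lower at -1.72 from a mean of 8.82 TPM. Serpina3g lost its call in 4 of the 6 fits that leave out 1 library (each WT c-kit+ replicate, limma adjusted p of 0.0689 to 0.0974, and the labelled IRF7-/- c-kit+ replicate 2, log2 fold change 0.93). Stfa2 lost its call in 3 of them (WT c-kit+ replicates 1 and 3 and the labelled IRF7-/- c-kit+ replicate 3, limma adjusted p of 0.0515 to 0.0681). Serpinb1a, which inhibits the neutrophil proteases inside the cell, was called higher in WT c-kit+ than in WT c-kit- (70.5 and 608 TPM, log2 fold change 3.15, SE 0.23, limma adjusted p = 9.71e-05). Between the c-kit+ groups it was 608 and 556 TPM (limma adjusted p = 0.122). Between WT c-kit+ and WT c-kit-, 2 of the 11 genes were called higher and 4 lower (54.5%, beside 14.4% of all genes).

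Of 10 transcription factors of granule genes, 3 were called lower and none higher in the libraries labelled IRF7-/- c-kit+ against WT c-kit+, beside 5.39% and 6.3% of all genes. Cebpe, which drives late granule genes, was 366, 269 and 334 TPM in WT c-kit+ against 132, 140 and 135 TPM in the labelled group (-1.24, SE 0.11, limma adjusted p = 0.000355). Irf8, which favours monocytes over neutrophils, was 93.3, 132 and 135 TPM against 28.6, 65.5 and 31.1 TPM (-1.59, SE 0.32, limma adjusted p = 0.00700). Klf4, another monocyte factor, went from a mean of 6.66 to 0.44 TPM (-2.40, SE 0.20, limma adjusted p = 0.000250). It passed the filter on low values only through WT c-kit+, so it could only be called lower. Spi1, which codes for PU.1, was 307 and 290 TPM on average (limma adjusted p = 0.362). Cebpa was 53.6 and 86.2 TPM (0.67, limma adjusted p = 0.00374), under the fold threshold. Also under it were Runx1 (-0.65, limma adjusted p = 0.0165), Gfi1 (-0.51, limma adjusted p = 0.0172) and Myb (0.22, limma adjusted p = 0.0150). At a limma adjusted p under 0.05 alone, 2 of the 10 were higher and 5 lower, beside 31.9% and 16.1% of all genes.

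The same list had 3 genes called higher and 3 lower in WT c-kit+ against WT c-kit-, beside 4.83% and 9.61% of all genes. Gfi1, a repressor required for neutrophil development, was 8.22, 8.28 and 15.1 TPM in c-kit- and 179, 152 and 148 TPM in c-kit+ cells (3.84, SE 0.22, limma adjusted p = 4.53e-05). Cebpe (3.09) and Myb (1.54) were higher too. Klf4 (-4.16), Irf8 (-2.08) and Cebpb (-1.36) were lower. Against WT c-kit-, the libraries labelled IRF7-/- c-kit+ had Cebpe, Gfi1 and Myb called higher and Irf8, Klf4, Cebpb (-1.24, limma adjusted p = 0.000184) and Runx1 (-1.12, limma adjusted p = 0.00103) called lower, beside 8.4% and 11.9% of all genes. Klf4 passed the filter there only through WT c-kit-, so it could only be called lower.

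**Figure D5:**
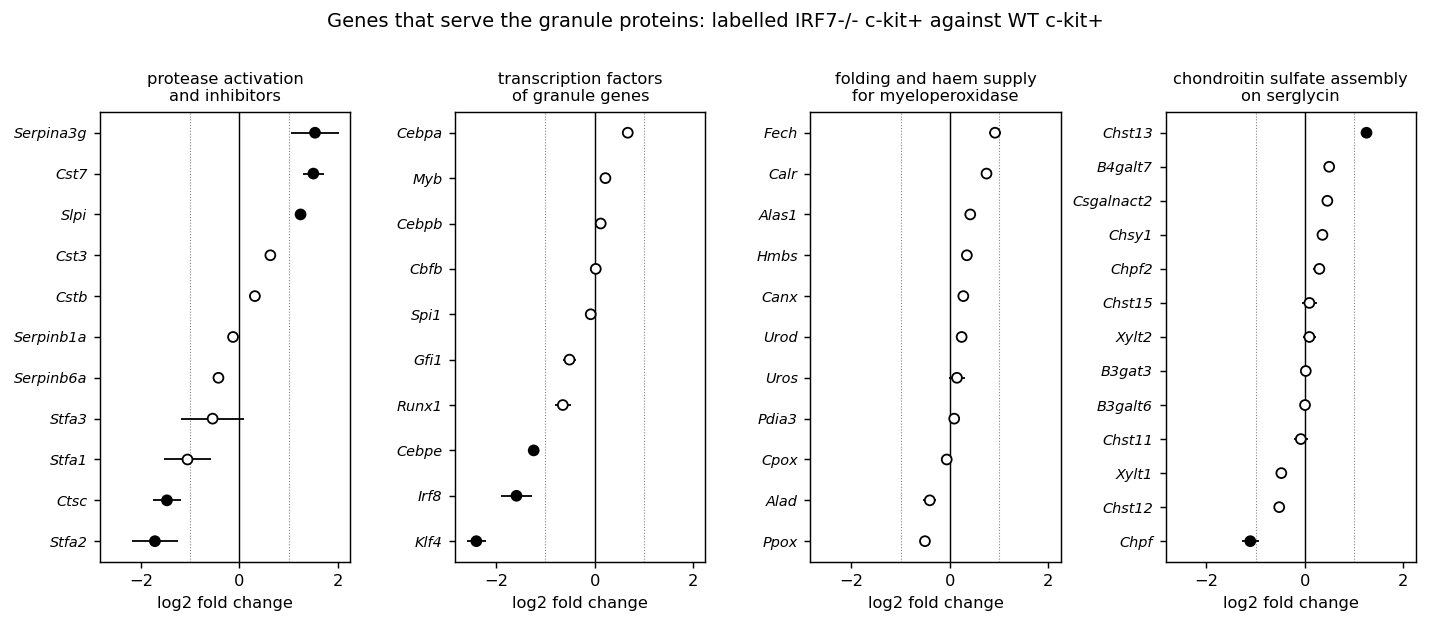
Log2 fold change of (TPM + 1) with its standard error in the libraries labelled IRF7-/- c-kit+ against WT c-kit+ for the tested genes of 4 lists, where filled points passed both thresholds and dotted lines mark a fold of 2. Slpi (1.24), Cst7 (1.50), Serpina3g (1.53) and Chst13 (1.25) are filled on the right, Ctsc (-1.47), Stfa2 (-1.72), Cebpe (-1.24), Irf8 (-1.59), Klf4 (-2.40) and Chpf (-1.11) on the left, and no gene of folding and haem supply is filled.

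Of 11 genes of folding and haem supply for myeloperoxidase, none was called between the c-kit+ groups in limma (11.7% of all genes were). At an unadjusted p under 0.05 there were 8, beside at least 48% of all genes, the share under 0.05 after adjustment. At an adjusted p under 0.05, 6 were higher and 2 lower, beside 31.9% and 16.1% of all genes. Calr, a chaperone of the myeloperoxidase precursor, was 889, 1050 and 895 TPM in WT c-kit+ against 1755, 1382 and 1626 TPM in the labelled group, without overlap (0.75, SE 0.11, limma adjusted p = 0.00227). Fech, the enzyme that inserts iron to complete haem, was at 0.92 (SE 0.12, limma adjusted p = 0.00131) and Ppox, an earlier enzyme of the pathway, at -0.50 (SE 0.07, limma adjusted p = 0.00204). Fech reached the fold threshold, at 1.00, without the labelled IRF7-/- c-kit+ replicate 1. Alas1, the first enzyme of haem synthesis, was the 1 gene of the list called higher in WT c-kit+ against WT c-kit- (281 and 819 TPM, log2 fold change 1.54, SE 0.06, limma adjusted p = 1.42e-05).

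For the chondroitin sulfate chains of serglycin, Chst13 was called higher and Chpf lower of 13 tested genes between the c-kit+ groups (15.4%, beside 11.7% of all genes). Chst13, a chondroitin sulfotransferase gene, was 24.3, 27.2 and 22.4 TPM in WT c-kit+ against 62.1, 52.2 and 66.0 TPM in the libraries labelled IRF7-/- c-kit+ (1.25, SE 0.11, limma adjusted p = 0.000316). It was 4.98, 4.98 and 7.19 TPM in WT c-kit-, so that its order over the groups was that of Srgn and Ctsg. Chpf, a chain polymerizing factor, was at or under 2.50 TPM everywhere (-1.11, limma adjusted p = 0.00269). It passed the filter on low values only through WT c-kit+, so only a lower call was possible. Chst12 was at -0.52 (limma adjusted p = 0.00422). In AML-WT cells Chst11, Chst13 and Chpf were called higher and Xylt2 lower in the c-kit+ population (30.8%, beside 14.4% of all genes). There too Chpf passed the filter only through WT c-kit+, and could only be called higher.

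Of 18 tested genes of other primary granule contents, 2 were called lower and none higher between the c-kit+ groups (11.1%, beside 11.7% of all genes). Lyz2, the lysozyme gene, was 2968, 1644 and 2681 TPM in WT c-kit+ against 401, 317 and 460 TPM in the labelled group (-2.60, SE 0.24, limma adjusted p = 0.000391). In WT c-kit- it was 10672, 7234 and 10454 TPM, so the order of its group means was opposite to that of Elane. Ctsz, a lysosomal cathepsin gene, was at 0.82 (SE 0.07, limma adjusted p = 0.000296). Cd63, a primary granule membrane protein gene, was 20.3, 35.8 and 46.0 TPM in WT c-kit-. It was 404, 404 and 382 TPM in WT c-kit+ against 671, 488 and 673 TPM in the libraries labelled IRF7-/- c-kit+. Cd63 was called higher in WT c-kit+ than in WT c-kit- (3.58, SE 0.27, limma adjusted p = 0.000110), and was at 0.61 between the c-kit+ groups (limma adjusted p = 0.00859).

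Of 15 genes of granule sorting and release, Lyst alone was called between the c-kit+ groups (6.67%, beside 11.7% of all genes). Lyst, whose loss gives giant granules, was 70.0, 60.0 and 59.6 TPM in WT c-kit+ against 26.9, 22.5 and 30.2 TPM in the libraries labelled IRF7-/- c-kit+ (-1.23, SE 0.12, limma adjusted p = 0.000472). Ap3s1 and Jagn1 had log2 fold changes of 0.55 (limma adjusted p = 0.000592) and 0.51 (limma adjusted p = 0.00505).

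Relatives of the 7 genes were read last. Of 14 serine protease genes of other blood cells, 3 were tested. None was called between the c-kit+ groups by limma, where 11.7% of all genes were. Prss34 was at -0.79, Mcpt8 at 0.55 and Cfd at 0.55. At an unadjusted p under 0.05 there was 1 of the 3, beside at least 48% of all genes, the share under 0.05 after adjustment. At a limma adjusted p under 0.05 there was none, beside 48% of all genes. Prss34 was called lower, at -1.16 (limma adjusted p = 0.0163), without the labelled IRF7-/- c-kit+ replicate 2. In that fit it passed the filter on low values only through WT c-kit+. The haem peroxidase genes Epx and Lpo did not pass the filter in any comparison. Of the other MS4A genes, 7 of 8 tested were called lower in WT c-kit+ than in WT c-kit-, where Ms4a3 and Ms4a2 were called higher, beside 9.61% of all genes called lower. Ms4a4a passed the filter on low values only through WT c-kit-, so it could only be called lower. Ms4a8a did so nearly, at 0.06, 0.14 and 1.04 TPM in WT c-kit+. Ms4a4c was 357, 311 and 285 TPM in c-kit- and 23.3, 32.0 and 22.9 TPM in c-kit+ cells (-3.57, SE 0.15, limma adjusted p = 1.64e-05). Between the c-kit+ groups Ms4a6b was called higher (1.51, SE 0.26, limma adjusted p = 0.00361), and Ms4a4b (-0.78) and Ms4a4c (-0.58) were not called.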

How the data were processed

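RNA-seq per the labels (the paper calls the assay a microarray) was done on 9 libraries in 3 groups of 3. The authors deposited 1 table of TPM values for 55536 genes, already scaled for gene length and library total. The unit was read from the values, and the aligner and build are not given in the sources used here. All identifiers matched GENCODE M21. A TPM value also moves when a few abundant genes change the total.

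Comparisons used only the 6 libraries concerned and limma 3.58.1 (R 4.3.3; lmFit, eBayes with trend) on log2(TPM + 1), for genes reaching 1 TPM in 3 or more libraries. Fold changes on this scale understate those of low genes. A call needed a log2 fold change of 1 or more either way and an adjusted p (Benjamini-Hochberg, all tested genes) under 0.05. The functions were tested on simulated data. Exact permutation tests (SciPy 1.17.1) were two-sided. The 7 genes and all lists were chosen with earlier results of these data known. The text names the 7 genes, the 3 largest differences of each list between the c-kit+ groups, the 3 genes most like each member and genes named for a textbook role, the last with values in view. Alternatives were another pseudocount, filter, normalization, fit and total, a replicate block, an unadjusted p and each library left out. Counts were also made with no fold threshold. Promoters came from RefSeq (GRCm38.p6). Some listed genes are not reported here.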

Additional observations from a re-analysis of the deposited data

How the results depend on the processing

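No value of the 7 genes changed direction over 315 alternatives of 21 log2 fold changes, and 310 kept the call made from both thresholds together. Another filter, all libraries in a single fit, the replicate block and an unadjusted p leave a log2 fold change as it was. For these only the call could change. The adjusted p alone crossed 0.05 in 10 of 294 alternatives, all between the c-kit+ groups: Prtn3 rose above it in 7 of 14 (up to 0.0977), and Mpo in 2 and Elane in 1 fell below it. Between the c-kit+ groups, 2 of the 7 were called, 5 with no fold threshold, and 2 to 3 with 1 library left out. Over all genes 1548 were called there, 1015 with a filter of 5 TPM, 6357 with no fold threshold and 1242 to 1412 with 1 library left out. With no fold threshold 5519 in place of 1916 were called in WT c-kit+ against WT c-kit-, and 8023 in place of 2738 in the libraries labelled IRF7-/- c-kit+ against WT c-kit-. Prss57 lost its call (-0.96) without the labelled IRF7-/- c-kit+ replicate 1. Ms4a3 gained one at -1.02 under quantile normalization, at -1.02 without WT c-kit+ replicate 3, at -1.03 without the labelled IRF7-/- c-kit+ replicate 1 and at -1.11 with the neutrophil markers left out of the total, an alternative chosen after seeing the data. The cause was not tested. Leaving those markers out of the total moved the median of all genes between the c-kit+ groups from 0.12 to -0.00 and the share of calls that were higher from 53.9% to 46.3%. The replicate block gave 2 called members and 1549 called genes between the c-kit+ groups. Same-numbered libraries correlated at -0.05 to 0.20 in their deviations, over 0.1 in 1 of 9 pairs. Differently numbered libraries correlated at -0.15 to 0.12. Only WT c-kit- and WT c-kit+ libraries could share a mouse. Their same-numbered pairs were at -0.05, 0.20 and 0.04 for replicates 1 to 3, so the numbers were not taken as pairs. TPM hold no depth, so nothing is said about detection.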
